A study of Drosophila melanogaster with 9 samples.

Results

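The cytosolic ribosomal protein genes of *Drosophila melanogaster* were followed across 9 arrays of male skeletal muscle. Members were taken by symbol, as every gene named RpL, RpS or RpLP with a number, second copies and ribosomal protein-like genes included, and where a gene had several probe sets the brightest on average was used. Of 11982 genes in the table, 41 were members, out of 92 genes with such a symbol in the annotation, and the others were not analysed here. The 41 comprise 29 standard genes (18 of the large subunit with its stalk, 11 of the small subunit), 9 second copies of a standard gene and 3 ribosomal protein-like factors.

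Males of the Foxo group carried UAS-Foxo for overexpression in muscle, males of the Mnt group carried UAS-Mnt likewise, and control males carried neither as far as the labels say, with 3 biological replicates in each group. Foxo is a transcription factor that insulin signalling keeps in the cytoplasm, and Mnt is a repressor that pairs with Max and opposes Myc. Flies were collected within 24 h of eclosion and reared at 25 °C, and RNA came from at least 15 males per group. The sources used here name no muscle driver, no age at dissection and no control genotype.

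Cytosolic ribosomes are built from ribosomal RNA and a fixed set of proteins made in matched amounts, and the genes of these proteins are among the most strongly transcribed in any tissue. Loss of a copy of many of them gives the Minute phenotype of flies, with slow development and short bristles. Myc raises ribosome production in growing fly tissues, and Mnt opposes it. Several genes have a second copy that is used mainly in the germ line, and the standard partners of RpL22-like, RpS5b, RpS10a, RpS19b, RpL37-2 and RpS28a lie on the X chromosome.

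Signals are the deposited RMA values on the log2 scale, on which the array medians lay between 5.70 and 5.95. The 16 measured muscle structure genes averaged 13.42, 12.97 and 13.22 in Foxo replicates 1, 2 and 3, 13.01, 13.34 and 13.20 in the Mnt replicates and 12.92, 13.08 and 13.07 on the control arrays, so the defining markers of the labelled tissue were bright on every array. The foxo signal was 6.19 and 1.87 times the control mean in Foxo replicates 1 and 3 but 1.15 times in the array labelled Foxo 2. That is close to the 1.13 times of the highest control, and several results for Foxo, though not all, are therefore also given without the array labelled Foxo 2. The Mnt signal was 2.6, 9.26 and 9.44 times the control mean in the Mnt replicates. The testis score, the mean log2 signal of 19 testis genes, was 7.45, 8.56 and 8.04 on the Foxo arrays, 7.08, 5.20 and 7.99 on the Mnt arrays and 7.50, 6.46 and 5.17 on the control arrays. The mean of 12 accessory gland genes was 9.30 in Foxo replicate 3 and between 3.97 and 5.31 elsewhere. In such bulk samples, fewer cells of a type and less RNA per cell cannot be told apart.

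The standard ribosomal protein genes had nearly the same signal in all groups. In Foxo versus control their log2 fold changes lay between -0.06 and 0.09 with a median of 0.006, against -0.056 over all genes, and in Mnt versus control they lay between -0.09 and 0.06 with a median of -0.006, against -0.002 over all genes. In Foxo versus Mnt they lay between -0.10 and 0.10 with a median of 0.018, against -0.035. None of the 29 passed limma's threshold of an adjusted p under 0.05 over all genes in any of these comparisons. In the same order, 0.1%, 0% and 0.134% of all genes passed. None of the 29 had an unadjusted p under 0.05, against 17.8%, 3.54% and 13.4% of all genes. After the centring described next, 3 did in Foxo versus control, against 26.5% of all genes, and 1 did in Foxo versus Mnt, against 16.2%. No other alternative gave more than 1 in any comparison.

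As counts, 16 of the 29 lay above 0 and 13 below in Foxo versus control, where 37.4% of all genes lay above 0, but after each array was centred on its median 0 lay above and 29 below. Centring moved the median of all genes in this comparison to -0.193 and that of the standard members to -0.131, a shift that by construction leaves the distance between them as it was. In Mnt versus control 12 lay above 0 and 17 below, where 49.5% of all genes lay above 0, and after centring 3 lay above and 26 below. In Foxo versus Mnt 19 lay above 0 and 10 below, where 41.7% of all genes lay above 0, and after centring 0 lay above and 29 below. Without the array labelled Foxo 2, 4 lay above 0 and 25 below in Foxo versus control (median -0.035), and without Mnt replicate 1 the Mnt split was 3 above and 26 below (median -0.042). The direction of these small shifts changed with single arrays and with the scaling.

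On the deposited scale, precision was high for these genes. In each of the 3 comparisons, 28 of the 29 standard members had a 95% interval wholly within 0.25 of 0 on the log2 scale, a change of 1.19 times either way. Among 178 other genes in the same range of mean signal, 47.2% had such an interval in Foxo versus control, 57.3% in Mnt versus control and 39.3% in Foxo versus Mnt, and over all genes the shares were 14.2%, 19.6% and 14.9%. The exception was RpL29 in Foxo versus control, with an interval reaching 0.31, and in Mnt versus control, where it reached 0.29. In Foxo versus Mnt it was RpS20, whose interval reached 0.26. Every standard member had a mean signal above that of at least 98.1% of genes. Affymetrix signals near the top of their range respond less than in proportion to transcript amount, and the part of this in the narrow intervals was not tested. The intervals also set no bound that holds across scalings. Centring moved the median of the standard members to -0.131 in Foxo versus control and to -0.087 in Foxo versus Mnt. Intervals on that scale were not counted.

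**Figure D1:**
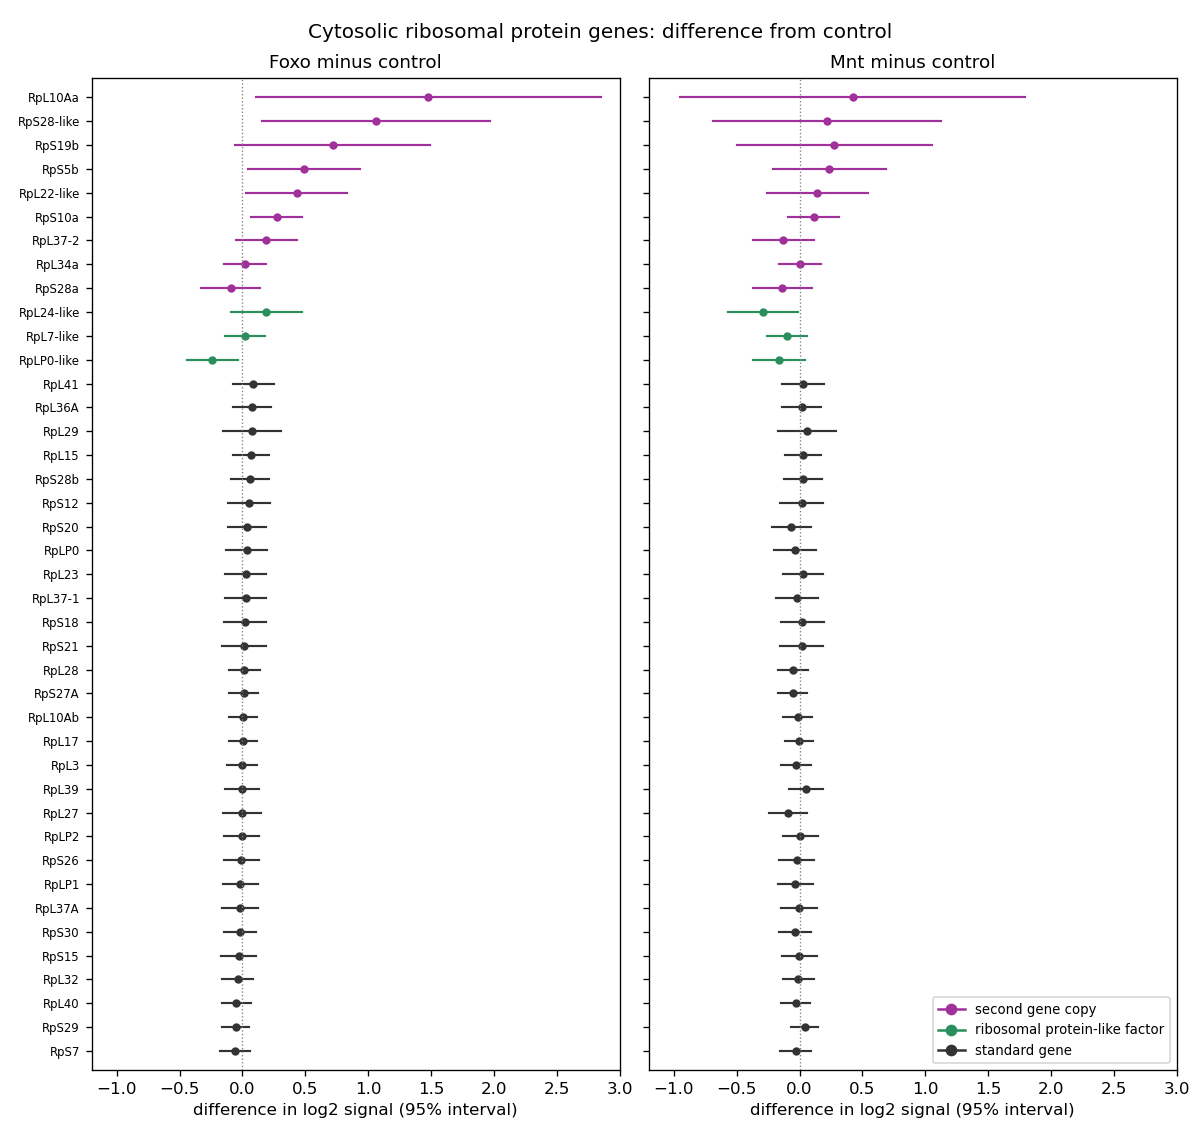
Log2 fold changes of the 41 members with 95% intervals from limma, Foxo minus control on the left and Mnt minus control on the right (x axis, difference in log2 signal), with colours for second gene copies, ribosomal protein-like factors and standard genes. The 29 standard genes lie between -0.06 and 0.09 in the left panel and between -0.09 and 0.06 in the right, while RpL10Aa reaches 1.48 in the left.

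RpL32, a large subunit protein whose transcript is a common reference in fly quantitative PCR, had signals of 13.46, 13.58 and 13.51 on the Foxo arrays, 13.62, 13.53 and 13.49 on the Mnt arrays and 13.59, 13.54 and 13.53 on the control arrays. The groups overlapped, and its log2 fold change was -0.04 in Foxo versus control (95% interval -0.17 to 0.09) and -0.01 in Mnt versus control (-0.14 to 0.12).

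In the stalk that recruits elongation factors, the scaffold protein gene RpLP0 had 13.15, 13.32 and 13.17 on the Foxo arrays, 13.26, 13.09 and 13.08 on the Mnt arrays and 13.24, 13.17 and 13.13 on the control arrays. Its acidic partners RpLP1 and RpLP2 had log2 fold changes of -0.02 and -0.005 in Foxo versus control and of -0.04 and 0.007 in Mnt versus control. All stalk genes overlapped between groups in all comparisons.

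RpL41, which encodes the shortest ribosomal protein, had the highest mean signal of the members and the highest standard value in Foxo versus control. It had 14.12, 14.34 and 14.20 on the Foxo arrays and 14.20, 14.09 and 14.12 on the control arrays, which overlapped (0.09 ± 0.07, SE, n = 3 per group, limma adjusted p = 0.515). At the low end was RpS7 of the small subunit, with 13.10, 13.19 and 13.15 on the Foxo arrays and 13.24, 13.19 and 13.17 on the control arrays (-0.06 ± 0.05, adjusted p = 0.549). In Mnt versus control the lowest standard value was that of the large subunit gene RpL27, with 13.27, 13.19 and 13.05 on the Mnt arrays and 13.30, 13.26 and 13.23 on the control arrays (-0.09 ± 0.07, adjusted p = 0.999).

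RpS29, a small zinc-binding protein of the small subunit, was the only standard member with groups that did not overlap, and did so in 2 comparisons. It had 13.71, 13.80 and 13.71 on the Foxo arrays, 13.86, 13.82 and 13.82 on the Mnt arrays and 13.78, 13.81 and 13.79 on the control arrays, so that each Mnt array lay above each Foxo array and each control. The log2 fold change was 0.04 ± 0.05 in Mnt versus control (limma adjusted p = 0.999) and -0.10 ± 0.05 in Foxo versus Mnt (adjusted p = 0.409), and neither passed. On a second bright probe set of RpS29, not used in the comparisons, the Foxo and Mnt arrays overlapped, at a difference of -0.05. In Mnt versus control RpS29 was the 1 member of 41 whose groups did not overlap, against 8.91% of all genes (3.67% higher and 5.24% lower). In Foxo versus Mnt groups did not overlap for 4 members, RpL24-like, RpL37-2 and RpS10a being higher and RpS29 lower, against 18.1% of all genes (4.3% higher and 13.8% lower). RpL39, a protein of the peptide exit tunnel, had -0.06 ± 0.06 in Foxo versus Mnt (adjusted p = 0.639).

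Within each group, the standard members moved together from array to array. The array labelled Foxo 2 gave the highest of the 3 Foxo signals for 29 of 29 genes, Mnt replicate 1 the highest Mnt signal for 28 and control replicate 1 the highest control signal for 28. The lowest Foxo signal was that of replicate 1 for 28 of 29 genes, and the lowest Mnt signal that of replicate 3 for 26. All 3 of these highest positions together were found for 27 of 29 standard members, RpL3 and RpS29 being the others, against 2.81% of all genes and 8.43% of the 178 other genes of like signal. The pattern was noticed in these values and is given as a description.

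The size of this shared movement was small. The array labelled Foxo 2 exceeded Foxo replicate 1 by a median of 0.13 over the 29 genes (range 0.07 to 0.39), against a median of 0.02 over all genes. Mnt replicate 1 exceeded Mnt replicate 3 by 0.14 (0.04 to 0.25), against 0.05, and control replicate 1 exceeded control replicate 3 by 0.07 (-0.02 to 0.13), against -0.06. On the deposited scale these differences between replicates were larger than the group medians of the standard members.

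The muscle structure genes took the other direction on the same arrays. Their medians for the same array pairs were -0.48, -0.18 and -0.16, and 14 of the 16 were lowest of the Foxo arrays in the array labelled Foxo 2, 12 lowest of the Mnt arrays in replicate 1 and 10 lowest of the controls in replicate 1. Their part in the movement of the ribosomal protein genes was not tested. After a further quantile normalization 25 of 29 standard members kept the 3 highest positions, and after centring on array medians 0 did. On the centred scale the median differences of the standard members were 0.004, 0.24 and -0.07 and those of all genes -0.10, 0.15 and -0.20, a scale that by construction leaves the distance between them as it was.

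**Figure D2:**
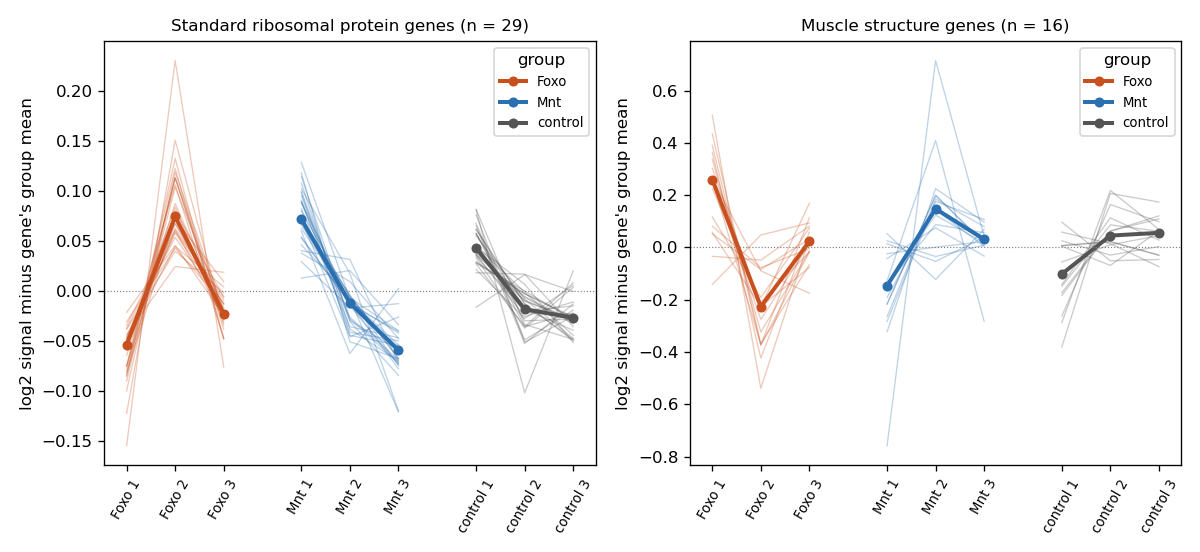
Each thin line is a gene's log2 signal minus its mean in the group (y axis) on the 3 arrays of Foxo, Mnt and control (x axis), for 29 standard ribosomal protein genes on the left and 16 muscle structure genes on the right. Thick lines are medians, lines join replicates that have no order, and the y axes differ in scale. Foxo 2, Mnt 1 and control 1 are high on the left and low on the right.

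The second copies fell into 2 kinds by their spread within groups. The pooled SD of RpL10Aa, RpS28-like, RpS19b, RpS5b and RpL22-like lay between 0.232 and 0.853, above the highest of any standard member, 0.134, while RpS10a, RpL34a, RpS28a and RpL37-2 had 0.078 to 0.099, inside the standard range. Their median log2 fold change was 0.43 in Foxo versus control, 0.14 in Mnt versus control and 0.29 in Foxo versus Mnt, with 8, 7 and 9 of 9 above 0. The first was 0.30 without the array labelled Foxo 2 and 0.28 without Foxo replicate 3, and the second was 0.015 without Mnt replicate 3 and 0.05 without control replicate 3. None passed the threshold over all genes in any comparison. In Foxo versus control, limma gave 0 of the 41 members an adjusted p under 0.05, where 0.1% of all genes passed, and 6 members an unadjusted p under 0.05, where 17.8% of all genes had one. Of these 6, 5 were second copies (RpL10Aa, RpS28-like, RpS5b, RpL22-like and RpS10a) and the other was RpLP0-like. Without the array labelled Foxo 2 the number was 2, against 9.7% of all genes, and without control replicate 3 it was 1, against 7.2% of all genes. Groups did not overlap for 5 of 41 members, against 23.6% of all genes, with RpL10Aa, RpL22-like, RpS10a and RpS5b higher, against 8.24% of all genes, and RpLP0-like lower, against 15.4%. In Mnt versus control 0 members passed, as did 0% of all genes, and 1 member had an unadjusted p under 0.05 (RpL24-like), against 3.54% of all genes, and in Foxo versus Mnt 0 passed, against 0.134% of all genes, and 2 had an unadjusted p under 0.05 (RpL24-like and RpL37-2), against 13.4%. Both overexpression groups are set against the same 3 controls.

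RpL10Aa, the second copy of the L1 stalk protein gene RpL10Ab, had the highest values of any member in all 3 comparisons. It had 7.11, 8.17 and 7.59 on the Foxo arrays, 6.44, 5.54 and 7.73 on the Mnt arrays and 7.05, 5.98 and 5.41 on the control arrays. Each Foxo array lay above each control, though Foxo replicate 1 exceeded control replicate 1 by little, and the Mnt arrays spanned both. The log2 fold change was 1.48 ± 0.60 in Foxo versus control, or 2.79 times (SE, n = 3 per group, limma adjusted p = 0.277), 0.42 ± 0.60 in Mnt versus control (adjusted p = 0.999) and 1.05 ± 0.60 in Foxo versus Mnt (adjusted p = 0.432). Without the array labelled Foxo 2 the first was 1.20. The second was -0.16 without Mnt replicate 3, 0.94 without Mnt replicate 2, 0.87 without control replicate 1 and 0.05 without control replicate 3. The third was 0.54 without Mnt replicate 2 and 1.635 without Mnt replicate 3. The standard gene RpL10Ab had 13.42, 13.49 and 13.45 on the Foxo arrays, 13.49, 13.42 and 13.39 on the Mnt arrays and 13.49, 13.44 and 13.42 on the control arrays.

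RpS28-like, a copy of the small subunit gene RpS28b, had 5.36, 6.65 and 5.89 on the Foxo arrays, 5.18, 4.74 and 5.44 on the Mnt arrays and 5.47, 5.002 and 4.24 on the control arrays. The lowest Foxo array lay below the highest control. Its log2 fold change was 1.06 ± 0.40 in Foxo versus control, or 2.09 times (limma adjusted p = 0.276), and 0.72 without the array labelled Foxo 2. In Foxo versus Mnt it was 0.84 ± 0.40 (adjusted p = 0.392), and 0.50 without the array labelled Foxo 2 (adjusted p = 0.672). RpS28a, the other copy of the same gene, had 5.29, 5.21 and 5.34 on the Foxo arrays, 5.10, 5.35 and 5.27 on the Mnt arrays and 5.40, 5.30 and 5.42 on the control arrays, with log2 fold changes of -0.09 ± 0.10 and -0.14 ± 0.10 against control (adjusted p = 0.613 and 0.999). The standard gene RpS28b had values of 0.06 and 0.03.

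RpS19b and RpS5b are copies of small subunit genes known from the germ line. RpS19b had 5.31, 6.48 and 6.42 on the Foxo arrays, 5.24, 5.50 and 6.16 on the Mnt arrays and 5.48, 5.24 and 5.35 on the control arrays, so 2 Foxo arrays and 1 Mnt array stood above the rest. Its log2 fold change was 0.72 ± 0.34 in Foxo versus control (limma adjusted p = 0.296). That value was 1.10 without Foxo replicate 1, 0.51 without the array labelled Foxo 2 and 0.54 without Foxo replicate 3. In Mnt versus control RpS19b had 0.28 ± 0.34 (adjusted p = 0.999), or 0.015 without Mnt replicate 3 and 0.47 without Mnt replicate 1. RpS5b had 6.02, 6.79 and 6.41 on the Foxo arrays, 5.95, 6.15 and 6.36 on the Mnt arrays and 5.88, 5.90 and 5.97 on the control arrays. Every Foxo array exceeded every control, at 0.49 ± 0.20 (adjusted p = 0.276), and the Mnt arrays overlapped the controls, at 0.24 ± 0.20 (adjusted p = 0.999). Without the array labelled Foxo 2 the Foxo value of RpS5b was 0.30 (adjusted p = 0.505), and without Mnt replicate 3 its Mnt value was 0.13.

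The dimmest members were RpL22-like and RpS10a, copies of RpL22 of the large and RpS10b of the small subunit. RpL22-like had 4.43, 4.70 and 5.04 on the Foxo arrays, 4.28, 4.32 and 4.70 on the Mnt arrays and 4.31, 4.41 and 4.15 on the control arrays. RpS10a had 4.78, 4.80 and 4.85 on the Foxo arrays, 4.69, 4.53 and 4.74 on the Mnt arrays and 4.46, 4.59 and 4.58 on the control arrays. In both, the Foxo arrays lay above the controls, at 0.43 ± 0.18 and 0.27 ± 0.09 (limma adjusted p = 0.277 and 0.276), while the Mnt arrays overlapped them. RpL22-like had 0.28 without Foxo replicate 3, and RpS10a had 0.135 after centring. RpS10a was also higher in each Foxo array than in each Mnt array (0.16 ± 0.09, adjusted p = 0.430), or 0.05 after centring and 0.097 without Mnt replicate 2. Their mean signals lay above those of only 16.0% and 18.8% of genes.

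RpL37-2, a copy of the large subunit gene RpL37-1, had 5.84, 6.04 and 5.98 on the Foxo arrays, 5.71, 5.61 and 5.58 on the Mnt arrays and 5.87, 5.63 and 5.77 on the control arrays. Each Foxo array lay above each Mnt array (0.32 ± 0.11, limma adjusted p = 0.289), and after a further quantile normalization the difference was 0.20. The standard gene RpL37-1 had log2 fold changes of 0.02 in Foxo versus control, -0.02 in Mnt versus control and 0.04 in Foxo versus Mnt. RpL34a, a copy of RpL34b, differed from the other second copies in being bright, with 11.39, 11.54 and 11.38 on the Foxo arrays, 11.55, 11.42 and 11.30 on the Mnt arrays and 11.41, 11.40 and 11.44 on the control arrays, and its log2 fold changes were 0.02 and 0.004 against control, or -0.12 and -0.03 after centring. Signals of different probe sets are not amounts of transcript and set no order between a copy and its partner.

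**Figure D3:**
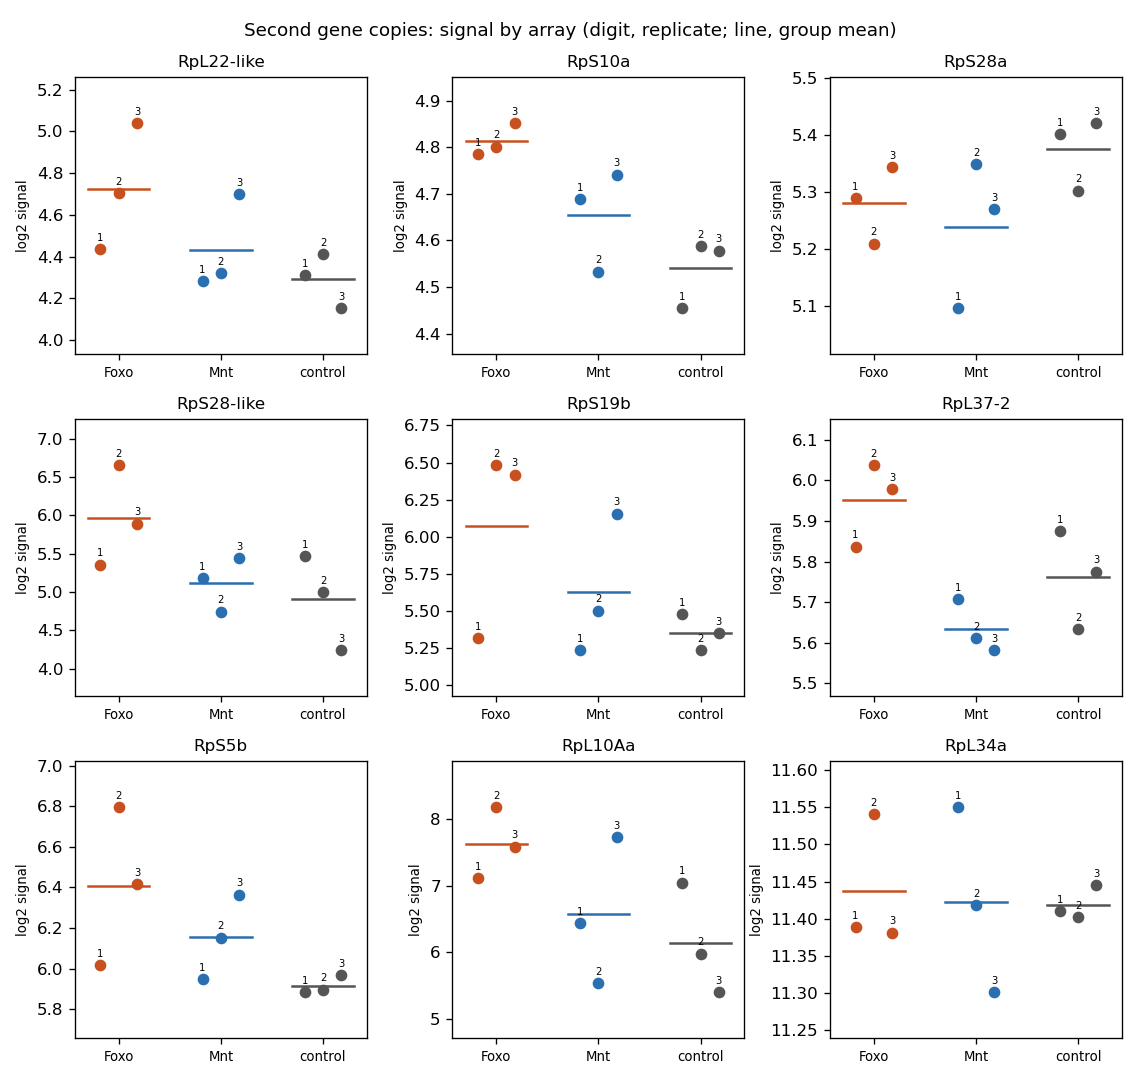
Log2 signal (y axis, own scale in each panel) of the 9 second copies in the Foxo, Mnt and control arrays (x axis), with the replicate number at each point and a line at the group mean. RpL10Aa, RpS5b, RpL22-like and RpS10a have all Foxo points above all control points, while RpL34a and RpS28a do not.

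The second copies were next set beside the testis score, which differed widely between arrays. RpL10Aa rose and fell with the score across the 9 arrays, with Pearson's r = 0.974 and Spearman's rho = 0.967 (exact permutation tests, two-sided, p = 1.65e-05 and 0.000165, adjusted p = 0.000149 and 0.000744 over 9 relations). RpS28-like had r = 0.908 and rho = 0.983 (exact permutation p = 0.000218 and 4.96e-05, adjusted p = 0.00098 and 0.000446). Permutations here and below ran over all 9 arrays regardless of group. Their p-values therefore do not separate differences between groups from movement within them. Leaving out the 2 arrays farthest from the median score, Mnt replicate 2 and control replicate 3, gave r = 0.990 for RpL10Aa and 0.885 for RpS28-like. In both genes the 3 arrays of each group had the same order as the score, Foxo, Mnt and control alike, as did 5.68% of all genes and 68.4% of the testis genes that make up the score.

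The other second copies followed the score less closely or not. RpL22-like had r = 0.721 and rho = 0.800 (exact permutation, adjusted p = 0.083 and 0.0415), and r = 0.670 without both arrays. RpS19b, RpS10a, RpS5b and RpL37-2 had r of 0.669, 0.656, 0.583 and 0.550 (exact permutation, adjusted p = 0.106, 0.108, 0.144 and 0.165), with rho of 0.683, 0.683, 0.567 and 0.550 (adjusted p = 0.0906, 0.0906, 0.171 and 0.171), and r of 0.891, 0.565, 0.882 and 0.624 without both arrays. RpS28a and RpL34a had r of -0.418 and -0.018 (adjusted p = 0.295 and 0.965) and rho of -0.467 and -0.300 (adjusted p = 0.239 and 0.437), and without both arrays r was 0.031 and 0.030. All of these points share an array's RNA and scaling. Of the 29 standard members 1 had an r of at least 0.7, RpL15 of the large subunit at 0.711, against 10.4% of all genes.

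With the testis score as a covariate in the fit, the value of RpL10Aa in Foxo versus control was 0.27 ± 0.23 (limma adjusted p = 0.817), that of RpS28-like 0.37 ± 0.28 (adjusted p = 0.802) and that of RpS19b 0.38 (adjusted p = 0.839). The median of the 9 second copies was then 0.25. In Foxo versus Mnt the same fit gave 0.12 for RpL10Aa (limma adjusted p = 0.893), against 1.055 without the covariate. RpS28-like had 0.31 there (adjusted p = 0.759), against 0.845. In Foxo versus control RpS5b had 0.38 and RpS10a 0.23 in this fit, against 0.49 and 0.27 without the covariate. RpL22-like had 0.25 (limma adjusted p = 0.802), against 0.43. In that comparison 0 members had an unadjusted p under 0.05 with the covariate, against 6.6% of all genes. Since the Foxo arrays had a higher mean score than the controls, score and group cannot be fully told apart.

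**Figure D4:**
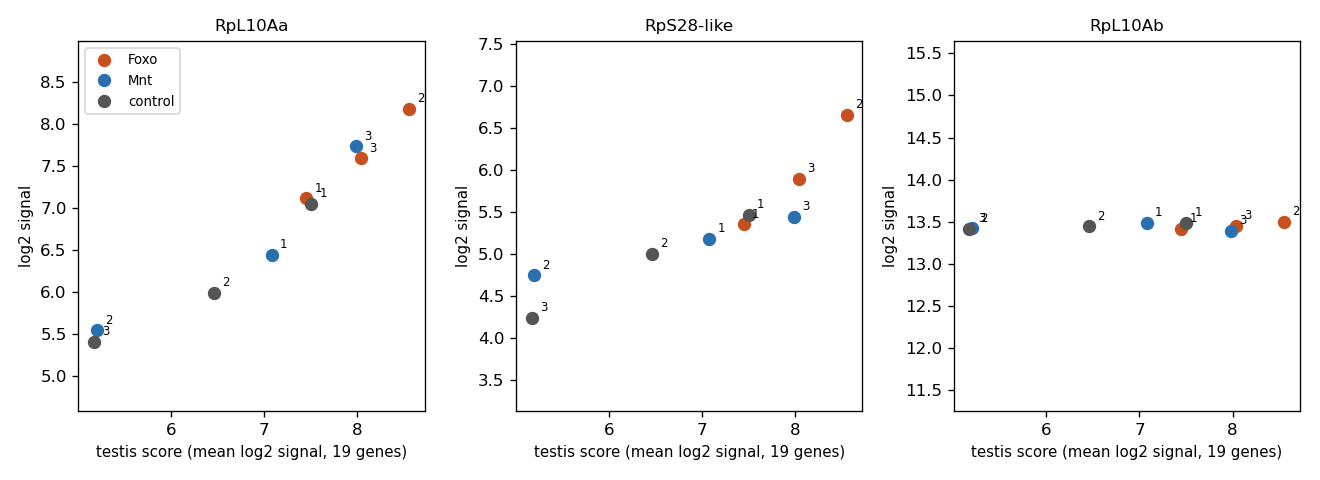
Log2 signal of RpL10Aa, RpS28-like and RpL10Ab (y axis, the same span in each panel) against the testis score (x axis, mean log2 signal of 19 testis genes), with 1 point per array, coloured by group and numbered by replicate. RpL10Aa and RpS28-like rise with the score (r = 0.974 and 0.908), and RpL10Ab, the standard partner of RpL10Aa, stays between 13.39 and 13.49.

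The symbol rule also takes in genes that resemble ribosomal proteins but whose yeast counterparts assemble the large subunit. RpL24-like, whose yeast counterpart Rlp24 joins pre-ribosomal particles in place of the later ribosomal protein, had 11.82, 11.77 and 11.95 on the Foxo arrays, 11.55, 11.19 and 11.34 on the Mnt arrays and 11.82, 11.43 and 11.71 on the control arrays. Each Foxo array lay above each Mnt array, and control replicate 2 lay among the Mnt arrays. The log2 fold change was 0.48 ± 0.12 in Foxo versus Mnt, or 1.4 times (limma adjusted p = 0.206), the lowest adjusted p of any member there, 0.19 ± 0.12 in Foxo versus control (adjusted p = 0.406), or 0.05 after centring and 0.08 without control replicate 2, and -0.29 ± 0.12 in Mnt versus control (adjusted p = 0.999). The value in Foxo versus Mnt was 0.52 without the array labelled Foxo 2 and 0.58 without Mnt replicate 1, in which the Mnt signal was lowest.

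RpLP0-like, whose yeast counterpart Mrt4 holds the place of the stalk protein during assembly, had 7.56, 7.66 and 7.69 on the Foxo arrays, 7.81, 7.65 and 7.68 on the Mnt arrays and 7.72, 7.94 and 7.96 on the control arrays. The Foxo arrays all lay below the controls (-0.24 ± 0.09, limma adjusted p = 0.276), at -0.25 without the array labelled Foxo 2 and -0.38 after centring. In Mnt versus control it was -0.16 ± 0.09 (adjusted p = 0.999). RpL7-like, related to yeast Rlp7, had 9.85, 9.71 and 9.91 on the Foxo arrays, 9.79, 9.71 and 9.60 on the Mnt arrays and 9.83, 9.79 and 9.78 on the control arrays, which overlapped in all comparisons (0.02 ± 0.07 and -0.10 ± 0.07 against control), the first being -0.12 after centring. All 3 of these factors were below 0 in Mnt versus control, and none passed.

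**Figure D5:**
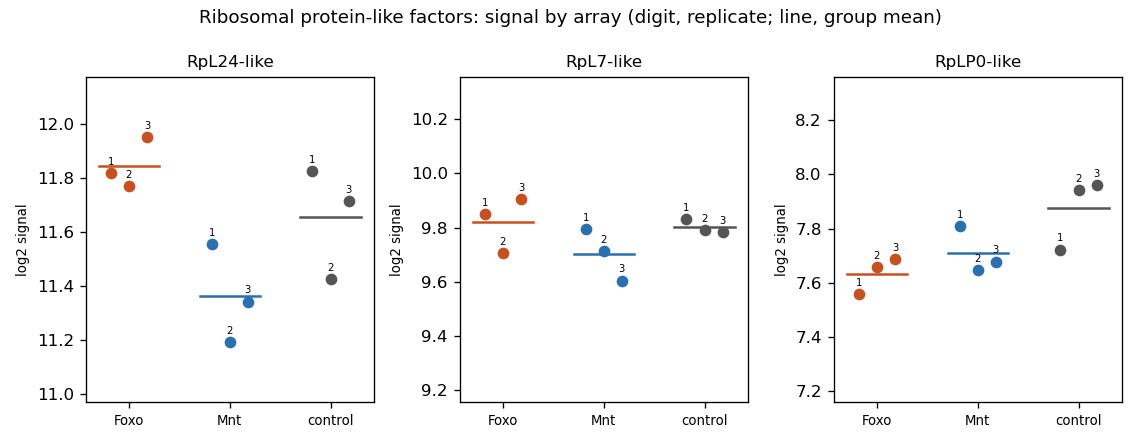
Log2 signal (y axis, the same span in each panel) of RpL24-like, RpL7-like and RpLP0-like in the Foxo, Mnt and control arrays (x axis), with the replicate number at each point and a line at the group mean. For RpL24-like all Foxo points lie above all Mnt points, and for RpLP0-like all Foxo points lie below all control points.

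Further probe sets were present for 4 standard members, RpL3, RpS7, RpS29 and RpS30. With 1 probe set per gene, 15.4% of all genes lay wholly lower in Foxo versus control, 5.24% in Mnt versus control and 13.8% in Foxo versus Mnt. A dim RpS29 probe set, not fitted alone, overlapped in all comparisons, at differences of 0.08 in Foxo versus control and 0.015 in Mnt versus control. A dim RpL3 probe set had 5.79, 5.77 and 5.85 on the Foxo arrays, 6.09, 5.90 and 6.20 on the Mnt arrays and 6.03, 6.30 and 6.30 on the control arrays, so that all Foxo arrays lay below all others, at a difference of -0.41 from control. A still dimmer RpL3 probe set, not fitted alone, had 3.56, 3.63 and 3.45 on the Foxo arrays and 3.68, 3.86 and 3.95 on the control arrays. Its Foxo arrays lay below all controls, at a difference of -0.28, but overlapped the Mnt arrays. The bright RpL3 probe set, for a protein near the peptidyl transferase centre, had a difference of -0.001. A dim RpS7 probe set had 5.27, 5.22 and 4.80 on the Foxo arrays and 5.52, 5.37 and 5.31 on the control arrays, a difference of -0.31, against -0.06 for the bright one. A dim RpS30 probe set was lower in each Mnt array, at 6.15, 6.13 and 5.91, than in each control, at 6.22, 6.29 and 6.67, a difference of -0.33. Fitted in place of the bright ones, where probe sets marked _s_at or _x_at were left out, none passed (limma adjusted p = 0.276 for RpL3 and 0.339 for RpS7 in Foxo versus control, and 1.0 for RpS30 in Mnt versus control). The sources used here do not say which transcript forms they detect.

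Other parts of the translation machinery were examined from lists of factors. Of 6 measured elongation and release factors, none passed in any comparison. The release factor gene eRF1 came closest, with log2 fold changes of 0.08 ± 0.05 in Foxo versus control (limma adjusted p = 0.347), -0.23 ± 0.05 in Mnt versus control (adjusted p = 0.707) and 0.31 ± 0.05 in Foxo versus Mnt (adjusted p = 0.0658). Rack1, a scaffold protein of the small subunit under a symbol of its own, had -0.02 and -0.04 against control. Of 11 measured regulators of ribosomal protein synthesis, foxo and Mnt themselves left out, none passed either. M1BP, Trf2 and Dref, transcription factors that act at promoters of ribosomal protein genes in flies, had -0.14, -0.008 and -0.08 in Foxo versus control and -0.02, 0.12 and -0.02 in Mnt versus control. S6k, the kinase of ribosomal protein S6, had 0.21 ± 0.06 in Foxo versus control (adjusted p = 0.276). In Mnt versus control Irbp18, a partner of the stress-response factor Atf4, had the lowest unadjusted p of the regulators, at 0.35 ± 0.09 (adjusted p = 0.999). All its Mnt arrays lay above all controls, against 3.67% of all genes. Max, the partner of Mnt, had -0.22 ± 0.08 in Mnt versus control (adjusted p = 0.999) and -0.16 ± 0.08 in Foxo versus control (adjusted p = 0.310). Its arrays of both groups lay below all controls, against 5.24% of all genes for Mnt and 15.4% for Foxo.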

How the data were processed

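The authors deposited log2 values for 18952 probe sets of 9 one-colour Affymetrix Drosophila Genome 2.0 arrays, made with RMA, per the submitters' processing notes, which name no version. RMA gives all arrays like distributions, so a general rise or fall is hidden. Groups and replicate numbers come from the sample titles. The 183 control probe sets were left out, 13647 probe sets with exactly 1 gene were used, and 3 that name a member beside another gene were not. Genes were fitted with limma 3.58.1 in R 4.3.3 (lmFit, eBayes with an intensity trend), all 9 arrays in 1 fit with 6 residual degrees of freedom, and Benjamini-Hochberg adjustment ran over the 11982 genes. Pooled SDs are over the 3 groups of 3 arrays. Standard errors come from the fit of all 9 arrays, with a variance per gene that is pooled over the groups and adjusted by eBayes. The 3 arrays per group limit the precision. Same-numbered arrays did not deviate together from their group means (correlations from -0.703 to 0.106), and the arrays were fitted unpaired. Other differences between arrays, such as in the testis score, enter these correlations. The check therefore cannot settle whether replicate numbers mark a pairing. The fit was also tested on simulated data. Members and lists were chosen with earlier results of these data known. Named genes are the 3 highest and 3 lowest members per comparison, every second copy with its measured partner, the like factors and the members of highest and lowest signal. Other genes were named after their values were seen. Alternatives covered the replicate block, arrays in the fit, intensity trend, array weights, scaling, dim genes, choice of probe set, the testis score and each array left out.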

Additional observations from a re-analysis of the deposited data

Results flagged for a closer look

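RpL24-like and RpL37-2 had every Foxo array above the control mean and every Mnt array below it. The direct comparison of Foxo with Mnt tests this difference, at 0.48 for RpL24-like (limma adjusted p = 0.206) and 0.32 for RpL37-2 (adjusted p = 0.289), and neither passed. In Foxo versus control RpL37-2 had 0.19 ± 0.11 (limma adjusted p = 0.349), or 0.05 after a further quantile normalization and likewise after centring. The share of all genes with this pattern was not counted. A second bright probe set of RpS29, which the comparisons did not use, had 13.71, 13.66 and 13.68 in the Mnt arrays and 13.65, 13.58 and 13.60 in the controls, with all Mnt arrays higher and a difference of 0.07. The RpS29 probe set that was used showed a difference of 0.04 with the same separation. In the Foxo arrays the second probe set spanned both the controls and the Mnt arrays, at 13.53, 13.79 and 13.57. The separation of Foxo from Mnt seen with the probe set that was used was therefore absent from it.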

How the results depend on the processing

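The number of members called was 0 in all 3 comparisons under each of 19 alternatives, where the lowest adjusted p of any member was 0.114 in Foxo versus control with array weights, 0.885 in Mnt versus control and 0.140 in Foxo versus Mnt. With the replicate block it was 0 as well, and the block changed no call (RpL10Aa in Foxo versus control 1.48, adjusted p = 0.396). Centring the arrays on their medians moved the median of the standard genes to -0.131 in Foxo versus control and to -0.087 in Foxo versus Mnt, by the construction of that scale, on which all genes shift likewise. The medians of the second copies stayed between 0.25 and 0.75 in Foxo versus control, the highest being that of the 2 copies left once the dimmest 40% of genes were dropped. Leaving out 1 array each, they ranged from 0.28 to 0.58 there, from 0.015 to 0.20 in Mnt versus control and from 0.22 to 0.44 in Foxo versus Mnt. The value of RpL10Aa in Mnt versus control ranged from -0.157 to 0.937 with 1 array left out, and the other highest and lowest members of each comparison kept their sign under each alternative that gave a value. Among second copies and like factors outside those, RpS28-like in Mnt versus control was -0.11 without control replicate 3, RpS28a in Foxo versus Mnt was -0.06 after centring, and RpL34a and RpL7-like, both near 0 in Foxo versus control, were each -0.119 after centring. RpS7 in Foxo versus control was -0.305 without probe sets marked _s_at or _x_at, which leaves its dim one, and RpS29 in Foxo versus Mnt was -0.03 with the mean of its probe sets. The high signals of the standard genes and the low signals of most second copies limit what these arrays can show of either.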

Other observations

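Among the 178 other genes in the signal range of the standard members, 15 shared the highest positions in the array labelled Foxo 2, in Mnt replicate 1 and in control replicate 1. They include eEF1alpha2, which delivers transfer RNA to the ribosome, the initiation factor gene eIF4A, the ribosomal scaffold gene Rack1 and Tctp, a growth-related translation product, all named after their values were seen. The others were Alas, bero, BomS6, CG9928, Cyp4g1, fabp, Gtpx, IscU, Ogdh, osi and RNASEK. On the deposited scale 1 of the 6 measured elongation and release factors had the pattern, eEF1alpha2. After a further quantile normalization 16 of the 178 had it, Rack1 and BomS6 no longer among them. After centring the arrays on their medians 2 of the 178 kept the positions, eEF1alpha2 and Gtpx.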
